A study of Mus musculus with 12 samples.

Results

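The hepatocyte transporters that move bile acids, bilirubin conjugates, phospholipid, sterols and other organic anions between blood and bile were examined in mouse liver and lung. They were 10 genes chosen by symbol for their role and matched to the Ensembl mouse identifiers of the count table, and all 10 were found among its 55414 identifiers. By role, 4 take up solutes from sinusoidal blood (Slc10a1, Slco1a1, Slco1a4, Slco1b2), 5 export into the bile canaliculus (Abcb11, Abcb4, Abcc2, Abcg5, Abcg8) and 1 returns solutes to blood (Abcc3). RNA was sequenced from wild-type C57BL/6J mice after CLP (an abbreviation read here as cecal ligation and puncture, a surgical model of abdominal sepsis) or after sham surgery. Livers and lungs were taken 6 h after surgery, and the 4 groups (CLP liver, sham liver, CLP lung, sham lung) hold 3 libraries each. The labels do not state whether the libraries of a group are separate animals, so a p-value here reflects only the scatter among these libraries, which may be technical. For age and sex, nothing is given in the sources used here.

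Hepatocytes are polarised cells. Bile acids returning from the gut are taken up across the sinusoidal membrane, mostly by the sodium-dependent carrier NTCP (Slc10a1), while members of the OATP family (the Slco genes) take up bilirubin, hormones, drugs and part of the bile acids without sodium. ATP-driven pumps at the canalicular membrane then drive bile flow: BSEP (Abcb11) exports bile acids, MDR2 (Abcb4) moves phosphatidylcholine to the outer leaflet, MRP2 (Abcc2) exports bilirubin glucuronides and glutathione conjugates, and the obligate heterodimer of Abcg5 and Abcg8 exports cholesterol and plant sterols. MRP3 (Abcc3) lies on the basolateral side and carries conjugates back to blood. Inherited loss of BSEP or of the human counterpart of MDR2 causes cholestasis, loss of MRP2 causes jaundice, and cholestasis is a known feature of sepsis.

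Library totals ran from 10559895 to 15854117 counts over the 12 libraries. Replicate libraries of liver correlated at 0.976 to 0.986 on average within their group, and no pair of replicates agreed within sampling noise. Mitochondrial genes took 4.46% to 4.71% of the counts in CLP livers and 4.16% to 4.55% in sham livers. Abundance is given as CPM, the counts of a gene relative to the library size after TMM scaling (a trimmed-mean correction for composition) within each organ.

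Promoter sequences of 4 genes that hold the hexamer AGGTCA near the start are shown, from genes that passed and did not pass the test in liver, because many hepatic transporter genes are bound by nuclear receptors that recognise it. The letters were searched on both strands, and capitals mark each match (TGACCT is the same hexamer on the other strand). Each sequence is the 150 bases before an annotated start in RefSeq on build GRCm38.p6, written 5′ to 3′ on the strand of the gene, and none holds an annotated exon base. Slc10a1 has another RefSeq window, in which the hexamer was not found within 250 bases before the start. Only the Slc10a1 window with the match is shown. The counts themselves were made on mm39.
Slc10a1, chr12:80968080-80968229, minus strand: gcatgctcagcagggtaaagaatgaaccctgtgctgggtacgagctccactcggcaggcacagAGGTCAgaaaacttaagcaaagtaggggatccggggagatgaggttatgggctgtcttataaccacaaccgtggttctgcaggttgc
Slco1b2, chr6:141629368-141629517, plus strand: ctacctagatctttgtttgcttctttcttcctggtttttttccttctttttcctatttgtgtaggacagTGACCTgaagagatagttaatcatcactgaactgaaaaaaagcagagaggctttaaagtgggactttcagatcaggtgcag
Abcb11, chr2:69342617-69342766, minus strand: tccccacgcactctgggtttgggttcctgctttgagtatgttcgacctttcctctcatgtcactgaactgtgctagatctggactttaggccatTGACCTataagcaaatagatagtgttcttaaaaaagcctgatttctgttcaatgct
Slco1a1, chr6:141946963-141947112, minus strand: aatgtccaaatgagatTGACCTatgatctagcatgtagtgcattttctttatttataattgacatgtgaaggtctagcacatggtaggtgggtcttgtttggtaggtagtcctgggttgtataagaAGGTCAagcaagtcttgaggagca
Of 32851 promoter windows of this length in the same table, 8.58% held the hexamer at least once and 0.557% at least 2 times, as the Slco1a1 window does. RefSeq promoters were at hand for 9 of the 10 genes, all but Abcc3. The 9 genes have 11 windows, and a gene was counted if any of its windows held a match. Shares of genes are thus not like for like with shares of single windows. Within 250 bases before the start, the hexamer was present in 5 of these 9 (Slc10a1, Slco1a1, Slco1b2, Abcb11, Abcc2), against 14% of all windows. Those 5 include 3 genes whose transcripts fell in CLP liver and 2 whose transcripts did not pass the test, as described next. Abcc2 holds its match 49 bases before its RefSeq start and Abcb4 holds none, and the sequences of both are not printed. A match is a run of letters and not a measured binding site.

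Abcg5 and Abcg8 lie head to head on chromosome 17, and the stretch between their starts serves both. The 109 bases between them, on GRCm38.p6 and written on the plus strand, are shown with the letters GATAA, the core of sites of GATA factors, in capitals (TTATC on the other strand).
Abcg5 to Abcg8, chr17:84683012-84683120: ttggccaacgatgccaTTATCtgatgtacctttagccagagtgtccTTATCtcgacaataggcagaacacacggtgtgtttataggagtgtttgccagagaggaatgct
GATAA was found at least once in 9.36% of windows of this length and at least 2 times, as here, in 0.788%. Within 250 bases before the start, 4 of the 9 genes (Abcb4, Abcc2, Abcg5, Abcg8) held it in any of their windows, against 22.6% of all single windows. Abcg5 and Abcg8 share the 2 matches in the stretch shown, so that stretch is counted for both genes.

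In liver 6 h after CLP, transcripts of 4 of the 10 transporters fell: the bile acid carrier Slc10a1, the OATP Slco1b2, the conjugate pump Abcc2 and the phospholipid flippase Abcb4. The falls ran from 1.57-fold for Abcb4 to 2.63-fold for Abcc2. None of the 10 rose. The bile salt export pump Abcb11, Slco1a1 and the basolateral exporter Abcc3 had log2 fold changes between -0.17 and -0.04, while Slco1a4, Abcg5 and Abcg8 varied between libraries and did not pass the test. All 10 passed the filter on low counts in liver. In edgeR's quasi-likelihood test with Benjamini-Hochberg adjustment over 12392 genes, 21.0% of all genes were lower in CLP liver, 21.4% were higher and 42.3% passed in either direction. The share of transporters lower was 40%, and their median log2 fold change (CLP over sham) was -0.66, against -0.01 for all genes tested. The log2 fold change was negative for 10 of 10, against 50.8% of all genes tested. That sign was not stable for Slco1a1, Abcg5 and Abcc3, which turned positive when single libraries were left out. The 4 genes that fell were also the 4 whose CLP libraries all lay below all sham libraries, a pattern found in that direction in 27.6% of genes tested and in the other direction in 28.1%. Without each library in turn, Slc10a1, Slco1b2 and Abcc2 passed every time, with highest adjusted p-values of 0.0343, 0.0493 and 0.00717 (edgeR with Benjamini-Hochberg adjustment), while Abcb4 did not. In whole tissue, fewer cells of a type and less RNA per cell cannot be told apart.

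**Figure D1:**
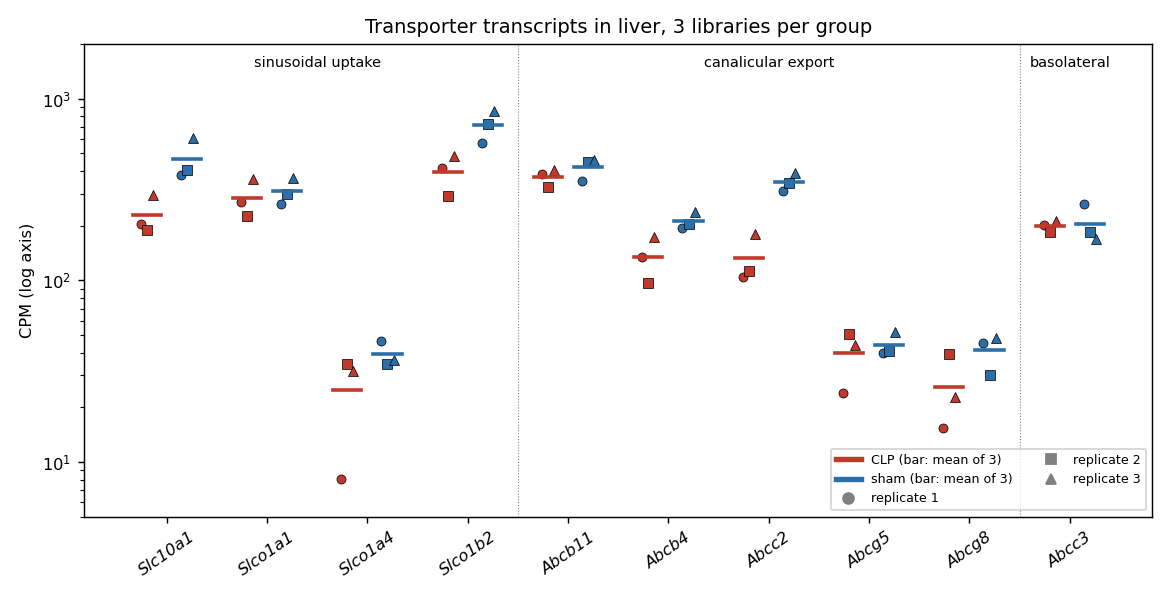
Abundance of the 10 transporters in each liver library (CPM, log axis), CLP left of sham within each gene; points are libraries and bars are means. The CLP and sham points are separate for Slc10a1, Slco1b2, Abcb4 and Abcc2 and overlap for the other genes.

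Among the uptake carriers, 2 of 4 fell. Slc10a1 (ENSMUSG00000021135) had 204, 190.1 and 294 CPM in CLP livers, against 382, 405 and 604 CPM in sham livers. Every CLP library lay below every sham library. Its log2 fold change was -1.02 ± 0.23 (SE, 95% interval -1.55 to -0.49; edgeR with Benjamini-Hochberg adjusted p = 0.00886), which is 2.02-fold lower. Slco1b2 (ENSMUSG00000030236), the mouse counterpart of the human hepatic OATP1B carriers, had 417, 292 and 481 CPM in CLP livers, against 568, 724 and 850.3 CPM in sham livers. The groups did not overlap, with CLP replicate 2 the lowest library. In log2 terms the fold change was -0.85 ± 0.22 (95% interval -1.34 to -0.35; edgeR with Benjamini-Hochberg adjusted p = 0.0140).

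The other uptake carriers of the OATP family did not pass the test. Slco1a1 (ENSMUSG00000041698), which transports bile acids and steroid conjugates, had 269, 226 and 361 CPM in CLP livers and 264, 300 and 364 CPM in sham livers. The libraries interleaved, the log2 fold change was -0.12 ± 0.19, and its interval ran from -0.56 to 0.32 (edgeR with Benjamini-Hochberg adjusted p = 0.653). Slco1a4 (ENSMUSG00000030237), which also carries cardiac glycosides, had 8.08, 34.8 and 31.8 CPM in CLP livers and 46.5, 34.7 and 36.5 CPM in sham livers. CLP replicate 1 stood far below all other libraries, while the other CLP livers lay near or at the sham range. The log2 fold change of Slco1a4 was -0.66 ± 0.49 with an interval of -1.85 to 0.53 (edgeR with Benjamini-Hochberg adjusted p = 0.322), and without CLP replicate 1 it was -0.23.

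Among the canalicular pumps, 2 of 5 fell. Abcc2 (ENSMUSG00000025194) had 104.5, 113 and 181 CPM in CLP livers, against 311, 344 and 389 CPM in sham livers, with no overlap. Its log2 fold change was -1.39 ± 0.22 (95% interval -1.89 to -0.89; edgeR with Benjamini-Hochberg adjusted p = 0.00158), the lowest of the 10 genes. Abcb4 (ENSMUSG00000042476) had 135, 96.5 and 173 CPM in CLP livers, against 193, 205 and 237 CPM in sham livers, again with no overlap but with a narrow gap. The fold change on the log2 scale was -0.65 ± 0.20 (95% interval -1.12 to -0.19; edgeR with Benjamini-Hochberg adjusted p = 0.0317). This call did not hold without CLP replicate 1, sham replicate 1, sham replicate 2 or sham replicate 3, which gave adjusted p-values of 0.0797, 0.0522, 0.0690 and 0.0983 in edgeR with the same adjustment.

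Abcb11 (ENSMUSG00000027048), the bile salt export pump, had 385, 325 and 405 CPM in CLP livers and 354, 446 and 458 CPM in sham livers, and the groups overlapped. Its log2 fold change was -0.17 ± 0.15, and the interval of -0.51 to 0.16 holds no fall as large as the estimates for Slc10a1, Slco1b2, Abcc2 or Abcb4 (edgeR with Benjamini-Hochberg adjusted p = 0.364). With library totals alone as the scale, Abcb11 fell by 0.36 on the log2 scale (edgeR with Benjamini-Hochberg adjusted p = 0.0430), a scale on which the median of all genes was -0.21. The exons of Abcb11 overlap a non-coding gene by 136 bases and a pseudogene by 19 bases on the opposite strand. For the strand setting of the counting nothing is given in the sources used here, so those reads cannot be assigned with certainty.

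The sterol exporter partners did not pass the test. Abcg5 (ENSMUSG00000040505) had 23.9, 50.8 and 44.4 CPM in CLP livers and 40.0, 40.8 and 52.3 CPM in sham livers, with a log2 fold change of -0.17 ± 0.27 and an interval of -0.79 to 0.46. Abcg8 (ENSMUSG00000024254) had 15.4, 39.3 and 22.7 CPM in CLP livers and 45.5, 30.2 and 48.0 CPM in sham livers, with a log2 fold change of -0.68 ± 0.35 and an interval of -1.51 to 0.16. For both genes the lowest library was CLP replicate 1. In edgeR with Benjamini-Hochberg adjustment, the adjusted p was 0.650 for Abcg5 and 0.166 for Abcg8. Each rested on single libraries: without CLP replicate 1 the log2 fold change of Abcg5 was 0.11, and without CLP replicate 2 Abcg8 fell by 1.12 (edgeR with Benjamini-Hochberg adjusted p = 0.0146). The ratio of Abcg5 to Abcg8 counts was 1.55, 1.29 and 1.96 in CLP livers and 0.880, 1.35 and 1.09 in sham livers, and the groups overlapped. The exons of these neighbours overlap by 82 bases on opposite strands, so a small part of their reads cannot be assigned with certainty.

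Abcc3 (ENSMUSG00000020865), the only basolateral exporter of the 10, had 202, 185 and 211 CPM in CLP livers and 263, 184 and 169 CPM in sham livers. Its log2 fold change was -0.04 ± 0.17 with an interval of -0.43 to 0.35 (edgeR with Benjamini-Hochberg adjusted p = 0.873), so a change of 1 log2 unit either way lies outside the interval. The sham livers spread more widely than the CLP livers, with sham replicate 1 the highest library.

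**Figure D2:**
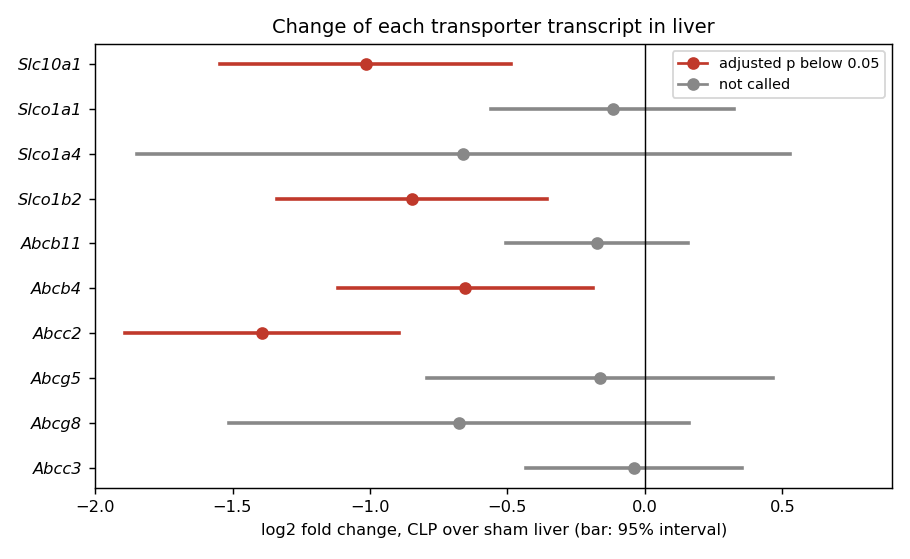
Log2 fold change (CLP over sham) of the 10 transporters in liver with 95% intervals from edgeR's quasi-likelihood fit, grouped by role; the line at 0 marks no difference. The intervals of Abcc2, Slc10a1, Slco1b2 and Abcb4 lie below 0, and those of the other 6 genes cross it.

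Pairs of genes were set against each other within each library, where the scaling cancels. Abcb11 counts per Slc10a1 count were 1.88, 1.71 and 1.38 in CLP livers and 0.927, 1.10 and 0.758 in sham livers. The groups did not overlap, and the mean log2 ratio was 0.72 ± 0.23 in CLP livers and -0.12 ± 0.27 in sham livers (SD, n = 3 each). Abcc3 counts per Abcc2 count were 1.93, 1.65 and 1.17 in CLP livers and 0.844, 0.534 and 0.435 in sham livers, with mean log2 ratios of 0.63 ± 0.37 in CLP livers and -0.78 ± 0.49 in sham livers. These are ratios of counts, not corrected for length. Slco1a1 counts per Slco1b2 count were 0.644, 0.774 and 0.750 in CLP livers and 0.465, 0.414 and 0.428 in sham livers, with no overlap and the narrowest spread within groups of the 4 ratios. Slco1a1 and Slco1b2 have the same role, and their ratio sets a gene that did not pass against one that fell. The other pairs were picked for their roles. All were picked with the results for single genes known, so the ratios are descriptions and carry no test.

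**Figure D3:**
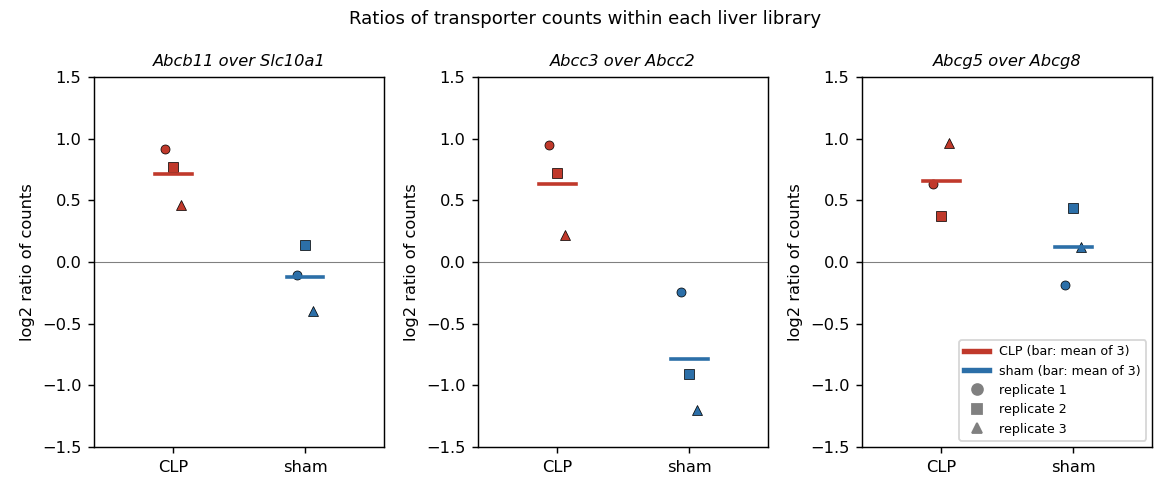
Log2 ratio of the counts of 3 transporter pairs within each liver library, CLP left of sham; points are libraries and bars are means of 3. Abcb11 over Slc10a1 and Abcc3 over Abcc2 were higher in all CLP libraries than in all sham libraries, and Abcg5 over Abcg8 overlapped.

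Taken as whole roles, both sums were lower, while the medians differed between the roles in whether the groups overlapped. The 4 uptake carriers summed to between 743 and 1167 CPM in CLP livers and between 1260 and 1855 CPM in sham livers. The 5 canalicular pumps summed to between 624 and 826 CPM in CLP livers and between 944 and 1184 CPM in sham livers. Neither pair of ranges overlapped. The median log2 CPM of the uptake carriers was 7.97 ± 0.34 in CLP livers and 8.54 ± 0.29 in sham livers, and the groups overlapped. That of the canalicular pumps was 6.91 ± 0.46 in CLP livers and 7.72 ± 0.15 in sham livers, without overlap (SD, n = 3 each). The canalicular median is the value of Abcb4 in every library except CLP replicate 1, where it is that of Abcc2. It therefore repeats the falls of these genes, while Abcb11, Abcg5 and Abcg8 each overlapped between the groups. Both sums also hold the genes that fell, so they show no fall of a role as a class. The median log2 CPM of uptake minus that of canalicular export was 1.06 ± 0.13 in CLP livers and 0.82 ± 0.14 in sham livers (SD, n = 3 each), a difference of 0.24, and the groups overlapped. With means in place of medians the difference was -0.07, so no direction was settled between the roles.

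Levels of different genes were compared per kilobase of annotated exon. In CLP livers the order by mean was Slc10a1 (104 ± 25.5 CPM per kb, SD, n = 3), Slco1b2 (80.5 ± 19.5), Abcb11 (72.2 ± 8.16) and Slco1a1 (54.0 ± 13.1), then Abcc3 (35.01 ± 2.29) and Abcc2 (15.6 ± 4.93). The first 4 overlapped from each gene to the next. Their CLP libraries ran from 86.45 to 133.5 CPM per kb for Slc10a1 and 59.2 to 97.6 for Slco1b2. Abcb11 ran from 63.1 to 78.8 and Slco1a1 from 42.8 to 68.35. In sham livers the first 4 stood in the same order, with Slc10a1 at 211 ± 55.6 CPM per kb, Slco1b2 at 145 ± 28.7, Abcb11 at 81.5 ± 11.01 and Slco1a1 at 58.6 ± 9.59. Abcc2 then came before Abcc3 in sham livers, at 40.8 ± 4.57 against 36.0 ± 8.84 CPM per kb, but these neighbours overlapped. At the top of the sham order, the lowest sham library of Slc10a1 (174 CPM per kb) lay just above the highest of Slco1b2 (173). Abcb11 and Slco1a1 differed by little more than their spread in sham livers, where the lowest Abcb11 library had 68.9 and the highest Slco1a1 library 69.0 CPM per kb. Abcg5, Abcb4, Abcg8 and Slco1a4 formed the lower end in both groups, from 14.6 down to 3.88 CPM per kb in CLP livers and from 22.6 down to 6.11 in sham livers. Slco1a4 was lowest in both.

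The transporters did not vary as a single block across the 6 liver libraries. On log2 CPM, Slco1b2 and Abcb4 had the highest correlation of any pair (Pearson r = 0.973, over 6 libraries), and Slc10a1 correlated at 0.963 with Abcc2, 0.954 with Slco1b2 and 0.938 with Abcb4. A second cluster of pairs held Slco1a4 with Abcg5 (0.872), Slco1a4 with Abcg8 (0.850) and Abcg5 with Abcg8 (0.797), genes that share the low value in CLP replicate 1. Slco1a1 and Abcb11 correlated at 0.841 but were not set apart from the genes that fell. Abcb11 correlated at 0.860 with Slco1b2 and 0.807 with Abcb4, and Slco1a1 at 0.761 with Abcb4 and 0.710 with Slco1b2. With Abcc2 the values were lower, at 0.638 for Abcb11 and 0.543 for Slco1a1. Abcb11 and Abcc3 gave the lowest value of any pair, -0.478. All of these libraries share the CLP and sham grouping, so a correlation over 6 points mostly repeats it for the genes that fell.

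The same measure over 7641 genes with a mean of at least 3 on the log2 CPM scale, predicted genes left out, named the genes whose pattern was closest. For Slc10a1 these were Acbd5 (r = 0.998), a peroxisomal tether, and Car5a (0.995), a mitochondrial carbonic anhydrase. For Slco1b2 they were Chn2 and Agpat3 (0.999 each), for Abcc2 Mia2 and Zranb1 (0.998 each), and for Abcb4 Smlr1 (0.996) and Mttp (0.995), the lipid transfer protein of lipoprotein assembly. For Abcb11 they were the mitochondrial and aldehyde-oxidising enzymes Etfdh (0.988) and Aldh9a1 (0.990). For Slco1a1 they were Ndufs3 (0.987) and Lrba (0.977), and for Slco1a4 Macrod1 (0.989) and Aldoc (0.978). For Abcg5 they were Rab3gap2 and the circadian repressor Nr1d2 (0.987 each), for Abcg8 Wdr81 (0.987) and Asxl2 (0.978), and for Abcc3 Alg1 (0.979) and Mapre2 (0.959). Values this high follow from taking the top of so many correlations over 6 libraries that share the CLP and sham grouping. They show no shared control.

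Transporters outside the 10 moved in both directions in liver. Of 12 other hepatic solute carriers, 0 rose and 5 fell, with a median log2 fold change of -0.13, and 1 rose without CLP replicate 2. The falls included Slco2b1, another OATP, with 72.2 ± 14.4 CPM in CLP livers and 142 ± 18.8 in sham livers (log2 fold change -0.97), and Slc47a1, the proton exchanger MATE1 that sends organic cations into bile (-0.90). Slc27a2, a fatty acid transport protein and very long-chain acyl-CoA synthetase, was the most abundant of this list and fell to 857 ± 151 CPM in CLP livers, against 1553 ± 289 in sham livers. Of 5 other basolateral exporters tested, 2 rose and 1 fell. Abca1, the cholesterol efflux pump that loads nascent high-density lipoprotein, had 1312 ± 156 CPM in CLP livers and 353 ± 90.1 in sham livers (log2 fold change 1.90). Abcc1, which exports glutathione conjugates, rose at a low level, with 9.14 ± 1.61 CPM in CLP livers and 2.27 ± 0.309 in sham livers (log2 fold change 2.02). Abcc6 fell by 1.03 on the log2 scale. The remaining list members, the organic solute transporter subunits Slc51a and Slc51b, did not pass the filter, and Slc51a had 0 counts in all 6 liver libraries. Calls in these lists are from edgeR with Benjamini-Hochberg adjustment over all genes. In that test 21.4% of all genes rose and 21.0% fell in liver, and each list count in liver stands beside those shares.

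Of 9 other genes tested from a list of canalicular transporters and flippases, 2 rose and 3 fell. Abcb1b, a multidrug pump, rose by 1.26 on the log2 scale, with 4.74 ± 0.902 CPM in CLP livers and 2.00 ± 0.588 in sham livers. Tmem30a, the accessory subunit of phospholipid flippases, rose by 0.31 (edgeR with Benjamini-Hochberg adjusted p = 0.0489), and the list held 1 rise in place of 2 with library totals alone, with upper-quartile scaling or without any single library other than CLP replicate 2. Aqp9, a glycerol channel that in fact lies on the sinusoidal membrane, fell by 1.96, with 85.3 ± 21.9 CPM in CLP livers and 332 ± 41.9 in sham livers. Atp7b, the copper pump of bile, fell by 1.12.

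Among 25 known regulators of transporter genes, 5 rose and 11 fell in liver, with a median log2 fold change of -0.39 against -0.01 for all genes. With library totals alone the counts were 5 and 16. Of all genes tested in liver, 21.4% rose and 21.0% fell with TMM scaling. Nr1h4 (FXR), the bile acid receptor that drives Abcb11 in cultured cells and mice, had 56.6 ± 30.2 CPM in CLP livers and 147 ± 14.5 in sham livers (log2 fold change -1.38 ± 0.38, edgeR with Benjamini-Hochberg adjusted p = 0.0256). Its target Nr0b2 (SHP), a repressor, had 1.79 ± 1.22 CPM in CLP livers and 2.12 ± 0.589 in sham livers and did not pass the test (edgeR with Benjamini-Hochberg adjusted p = 0.659). The xenobiotic receptors Nr1i3 (CAR) and Nr1i2 (PXR) fell by 3.56 and 0.77 on the log2 scale, and the oxysterol receptor Nr1h3 (LXRα), which drives Abcg5 and Abcg8, fell by 0.60. The hepatocyte factor Hnf4a, the most abundant regulator of the list, rose and had 1281 ± 142 CPM in CLP livers and 744 ± 88.4 in sham livers. The acute-phase factors Cebpb and Stat3 rose by 1.76 and 1.19. Exons of Nr1i3, Nr1h3, Cebpb and Stat3 overlap those of neighbouring genes, as do those of Slco2b1, Slc27a2, Abcb1b, Ezr, Lpcat3, Gclm and Pdzk1, so part of their counts cannot be assigned with certainty. The extent is large for Nr1i3, where 3304 of 4414 exon bases overlap Tomm40l on the opposite strand, and its fall carries that limit.

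**Figure D4:**
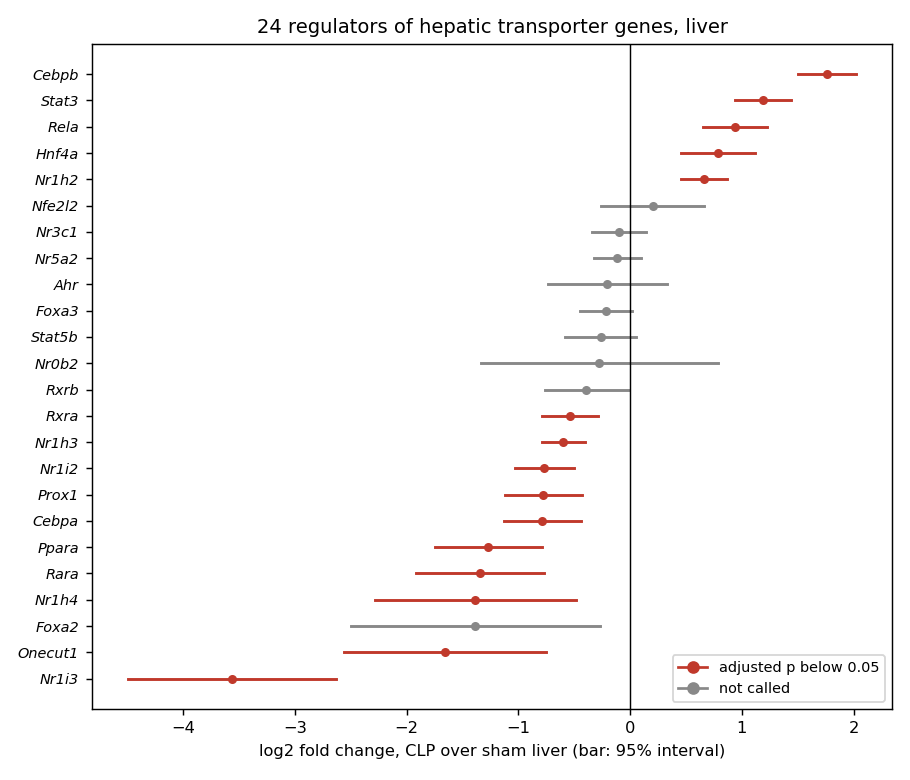
Log2 fold change (CLP over sham) in liver of 24 regulators of transporter genes with 95% intervals from edgeR's quasi-likelihood fit. By the adjusted p, 5 of those drawn were higher and 10 were lower in CLP liver, from Cebpb at 1.76 at the upper end to Nr1i3 at -3.56 at the lower end.

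Proteins that anchor and traffic transporters were measured as a separate list. Of 16 tested, 2 rose and 5 fell, with a median log2 fold change of -0.02, where 21.4% of all genes rose and 21.0% fell. Slc9a3r1 (NHERF1), a scaffold of the canalicular membrane, had 626 ± 39.9 CPM in CLP livers and 173 ± 15.7 in sham livers (log2 fold change 1.86), and Ezr, which links membrane proteins to actin, rose by 2.06. Rdx (radixin), the linker that holds MRP2 at the canaliculus in mice, fell by 0.50, with 85.1 ± 6.34 CPM in CLP livers and 120 ± 8.85 in sham livers. The tight junction gene Cldn1 fell by 2.57. Pdzk1, named after its values were seen because its protein holds the Slco1a1 carrier at the membrane in mice, had 20.7 ± 6.19 CPM in CLP livers and 42.0 ± 6.37 in sham livers (log2 fold change -1.02, edgeR with Benjamini-Hochberg adjusted p = 0.00882), although Slco1a1 itself did not pass the test. Of the 3556 exon bases of Pdzk1, 1333 overlap Gpr89 on the opposite strand, so its value carries that limit.

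The pathways that supply the cargo were counted beside the shares of all genes, 21.4% higher and 21.0% lower in CLP liver. Counts this small are not read as a result about a pathway. Of 15 genes of bile acid synthesis and conjugation, 1 rose and 4 fell, and without CLP replicate 2 the counts were 3 and 2. With library totals alone 1 rose and 6 fell, and 3 fell without CLP replicate 1 or sham replicate 2. Cyp8b1, the 12α-hydroxylase that sets the share of cholic acid, had 77.7 ± 37.6 CPM in CLP livers and 270.1 ± 59.4 in sham livers, and the racemase Amacr fell by 0.98 on the log2 scale. Baat, which conjugates bile acids to taurine, rose to 643 ± 123 CPM in CLP livers, against 364 ± 20.6 in sham livers. Scp2, the most abundant of the list, had 1554 ± 531 CPM in CLP livers and 2174 ± 263 in sham livers and did not pass the test. Of 8 genes of haem breakdown and bilirubin conjugation, whose end product leaves through MRP2, 2 rose and 0 fell. These were the haem oxygenase Hmox1, with 185 ± 38.6 CPM in CLP livers and 28.5 ± 9.47 in sham livers, and Blvra, with 12.9 ± 1.61 CPM in CLP livers and 9.27 ± 0.325 in sham livers. With library totals alone the counts for that list were 1 and 2, and with upper-quartile scaling 1 and 1. It held 1 rise without CLP replicate 1, sham replicate 2 or sham replicate 3, and 1 fall without sham replicate 1.

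Targets of the receptors that act on the transporters were counted apart from the transporters, where 21.4% of all genes rose and 21.0% fell. Of 10 targets of the liver X receptors other than Abcg5 and Abcg8, 1 rose (Abca1) and 3 fell, among them Lpcat3, an enzyme of phospholipid remodelling (-0.83), and Nr1h3 itself. Scd1, the most abundant of that list, had a log2 fold change of 0.51 that did not pass. Of 9 targets of CAR and PXR, 1 rose and 0 fell. The rise was Sult1e1, the oestrogen sulfotransferase, with 2.24 ± 0.689 CPM in CLP livers and 0.749 ± 0.443 in sham livers, while Cyp3a11 had 3246 ± 521 CPM in CLP livers and 3971 ± 1097 in sham livers and did not pass. Of 11 targets of NRF2, the factor of the oxidative stress response that can raise Abcc2 and Abcc3, 4 rose and 2 fell. Slc7a11, the cystine carrier, had 250 counts over the CLP livers and 4 over the sham livers, while Gclm, a subunit of glutathione synthesis, fell by 0.48 and Osgin1 fell by 0.78. Slc7a11 passed the filter on low counts only through the CLP livers, so its entry to the test favoured a rise. Sult1e1 lay near that filter in sham livers, and the same limit holds for it. Without CLP replicate 2, the targets of the liver X receptors held 2 rises, and those of CAR and PXR held 1 fall, as they did with library totals alone. The count of falls among NRF2 targets was 0 without CLP replicate 1, CLP replicate 3, sham replicate 1 or sham replicate 3, and the rise among CAR and PXR targets was lost (0 of 9) without CLP replicate 3, sham replicate 1 or sham replicate 3.

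Markers of cell types were counted in the same liver libraries, where 21.4% of all genes rose and 21.0% fell. Of 13 hepatocyte markers tested, 3 rose and 1 fell with a median log2 fold change of -0.10, but 2 rose and 7 fell with library totals alone, and 4 fell with upper-quartile scaling. They summed to between 111118 and 131053 CPM in CLP livers and between 85009 and 109068 CPM in sham livers, a sum in which Alb alone took 5.42% to 7.16% of all counts in CLP livers and 4.68% to 6.91% in sham livers. Neutrophil markers rose in 9 of 9 tested and summed to between 172 and 245 CPM in CLP livers, against 18.0 to 20.2 CPM in sham livers. Of the 7 cholangiocyte markers tested, 4 rose and 2 fell, with sums of 122 to 195 CPM in CLP livers and 85.5 to 116 CPM in sham livers. Those counts are unstable: 2 rose with library totals alone or without sham replicate 3, 1 fell without CLP replicate 1 or sham replicate 3, and 0 fell without CLP replicate 2 or sham replicate 1. Krt19, Krt7 and Cftr, which define bile duct cells, did not pass the filter. Markers of sinusoidal endothelium fell in 9 of 10 and those of Kupffer cells in 6 of 10, with 1 rise in each list. The endothelial falls were 7 without CLP replicate 1, CLP replicate 2 or sham replicate 3, and 8 without sham replicate 2. The Kupffer cell falls were 5 without CLP replicate 1, CLP replicate 3, sham replicate 1 or sham replicate 3. Neutrophil rises were 8 without sham replicate 3. Of 7 lung epithelium markers tested in liver, 6 rose. That list summed to only 68.6 to 145.4 CPM in CLP livers and 55.7 to 67.8 CPM in sham livers. Genes with few counts can enter the test through the CLP livers, which favours a rise. For the lung epithelium and neutrophil markers this was not examined gene by gene, so their rises are read as descriptions. Of the 3 enterocyte markers tested in liver, 1 rose and 1 fell, and Lct, Sis and Cdh17 had 0 counts. The enterocyte rise was lost with library totals alone or without CLP replicate 1, CLP replicate 2, sham replicate 1 or sham replicate 2. The enterocyte fall was lost without CLP replicate 3, sham replicate 2 or sham replicate 3, and 2 fell with library totals alone, with upper-quartile scaling or without CLP replicate 1. The part of these cells in the transporter results was not tested.

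In lung, where hepatocytes are absent, the same genes served as a background. Only Slco1a4 and Abcc3 passed the filter there. The other 8 had 0 to 10 counts per library, at most 0.66% of their level in sham liver. The 13 hepatocyte markers had medians of 0.0554% to 0.0830% of the sham liver level in CLP lungs and 0.0194% to 0.136% in sham lungs. These percentages are on library totals. Sham lung against sham liver was not read as a test for these genes, which were chosen as hepatocyte transporters and in 8 of 10 cases passed the filter of the 12-library model through liver. For all genes, 36.5% were lower in sham lung, 44.4% were higher and 80.8% differed in either direction (edgeR with Benjamini-Hochberg adjustment).

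Slco1a4 was called lower in lung after CLP. It passed the filter on low counts there only through the sham lungs, where it was higher. Its entry to the test thus favoured a fall, and the call is read as a description. It had 4, 3 and 8 counts in CLP lungs, against 26, 20 and 17 counts in sham lungs, or 0.311, 0.243 and 0.728 CPM in CLP lungs and 2.11, 1.497 and 1.27 CPM in sham lungs. The groups did not overlap, although the counts are few. The log2 fold change was -1.93 ± 0.43 (95% interval -2.93 to -0.94; edgeR with Benjamini-Hochberg adjusted p = 0.00689), in a comparison where 24.9% of genes were lower, 23.9% higher and 48.9% called in either direction. In the model of all 12 libraries the call did not hold (-1.95, edgeR with Benjamini-Hochberg adjusted p = 0.111). Slco1a4 is best known outside liver from capillary endothelium of the brain. Of 8 markers of brain and lung capillary endothelium in these lungs, 1 rose and 4 fell, with sums of 3169 to 3548 CPM in CLP lungs and 3576 to 4000 CPM in sham lungs, and their part in the fall of Slco1a4 was not tested.

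Abcc3 was the only one of the 10 with substantial lung transcript. It had 1336, 1240 and 1141 counts in CLP lungs and 1231, 1439 and 1407 counts in sham lungs, or 103.9, 100.4 and 103.9 CPM in CLP lungs and 100.1, 108 and 105 CPM in sham lungs. Its log2 fold change was -0.02 ± 0.07 with an interval of -0.18 to 0.13 (edgeR with Benjamini-Hochberg adjusted p = 0.812), so lung and liver both gave an estimate near 0. The change in lung minus that in liver was -0.01 ± 0.19 on the log2 scale for Abcc3 and -1.29 ± 1.01 for Slco1a4, and neither passed (edgeR with Benjamini-Hochberg adjusted p = 0.435 for Slco1a4, but 0.0181 at -1.65 without liver CLP replicate 1). The 8 genes with too few lung counts allow no reading of a difference in response. Among them Abcc2 was past the threshold, having entered the test through its liver counts, with 8, 8 and 6 counts in CLP lungs and 2, 4 and 3 in sham lungs. Of all genes, 8.89% were higher in that comparison, 8.84% lower and 17.7% called in either direction. Lung Abcc3 stood at 44.0% to 45.6% of the sham liver level in CLP lungs and at 46.6% to 50.3% in sham lungs, on library totals. With TMM scaling over both organs, sham lung instead lay 5.04-fold below sham liver (log2 -2.33 ± 0.14, SE), so the size of this gap depends on the scaling.

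**Figure D5:**
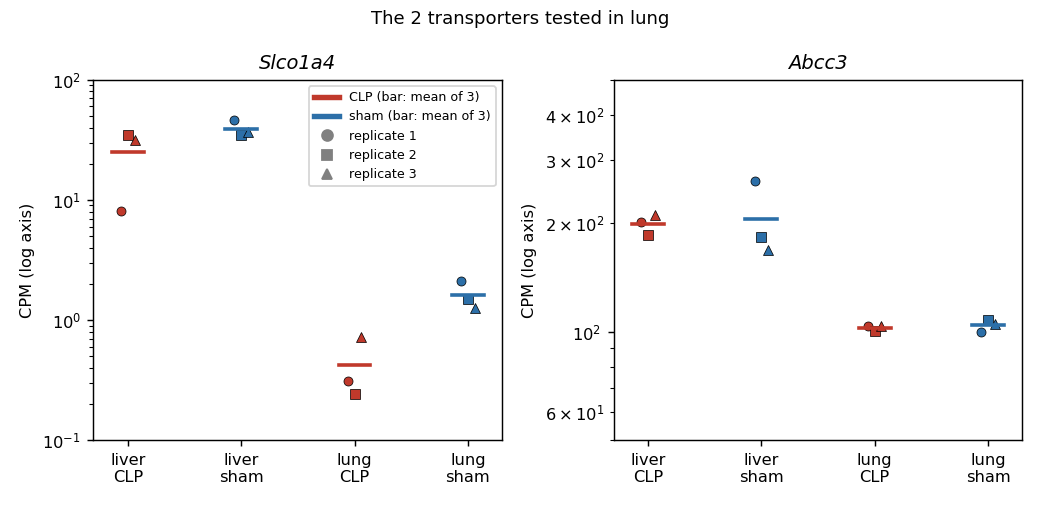
Abundance of Slco1a4 and Abcc3, the transporters tested in lung, in each library of CLP liver, sham liver, CLP lung and sham lung (CPM scaled within each organ, log axis); points are libraries and bars are means of 3. Slco1a4 lies at 0.243 to 0.728 CPM in CLP lungs, below the 1.27 to 2.11 CPM of sham lungs, while Abcc3 overlaps between CLP and sham in both organs.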

How the data were processed

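RNA-seq was analysed in 12 libraries from liver and lung. The authors deposited raw counts of reads per gene, as whole numbers. Per the submitters' processing notes, STAR 2.7.10a, featureCounts, FastQC, DESeq2 and the build mm39 were used, with no roles named. Libraries were made with a stranded TruSeq kit, per the labels' protocols. For the annotation release and the strand setting, nothing is given in the sources used here. If strand was ignored, overlapping genes would share reads.

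Genes were filtered by group (minimum count 10, total 15), TMM-scaled and tested with edgeR 4.0.16 (quasi-likelihood, robust) in R 4.3.3, CLP against sham, with 6 libraries for each organ. The change in lung minus that in liver, and sham lung against sham liver, were fitted over all 12. Two-sided p-values were adjusted by Benjamini-Hochberg over all genes tested, at 0.05. Standard errors are the fold change divided by the square root of F, and intervals use the t distribution. The procedure was tested on simulated data. DESeq2 1.42.0, limma-voom (limma 3.58.1), other scalings, no filter, a replicate block and leaving out each library were alternatives.

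The members, gene lists and tests were chosen with earlier results of these data known. Named genes are the 10 members, for each list the 2 called genes with the lowest p in each direction and the most abundant member, regulators fixed by name, and for each member the 2 genes of highest Pearson r. A regulator that the rule names is not reported here. Exon lengths and overlaps come from GENCODE M21 and promoters from RefSeq on GRCm38.p6, an older build than that of the counts. Library totals of 10559895 to 15854117 put 3 counts at 0.189 to 0.284 CPM, and intervals cover the spread of these libraries only. Replicate pairs gave a chi-square of 5.28 to 37.6 per degree of freedom, so each library was counted as 1 sample.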

Additional observations from a re-analysis of the deposited data

Results flagged for a closer look

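For Abcc2 the test of the response in lung minus that in liver gave 2.71 ± 0.58 on the log2 scale (edgeR with Benjamini-Hochberg adjusted p = 0.00601 over 16111 genes), and from 2.54 to 3.06 without each library in turn. Abcc2 did not pass the filter in lung alone and entered this test through its liver counts. The lung side rests on 22 counts summed over the CLP lungs and 9 over the sham lungs, so the value is not read as a difference in response between the organs.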

How the results depend on the processing

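The 4 falls in liver (Slc10a1, Slco1b2, Abcb4, Abcc2) were counted again under each alternative. The count was 4 with RLE, upper-quartile scaling, DESeq2, limma-voom, no filter, all 12 libraries in 1 model and the replicate block, 5 with library totals alone, and 3 to 5 without each library in turn. Transporters that rose were 0 throughout (0 to 0 without each library).

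Scaling moved the balance of all genes. In liver 2647 genes were higher and 2600 lower, against 1689 and 3796 when only library totals were used and 2122 and 3144 by the upper quartile, and the median of all genes was -0.01, -0.21 and -0.11. In lung 3698 were higher and 3850 lower, against 2977 and 4847 by library totals and 2929 and 4946 by the upper quartile, where the medians were -0.13 and -0.14. For the change in lung minus that in liver 1432 were higher and 1424 lower, against 1861 and 965 with library totals. Transporters lower in lung were 0 in the model of all 12 libraries, against 1. Uptake minus canalicular export was -0.0729 with means, against 0.24 with medians. Abcc3 in lung was 0.00644 with RLE and 0.00631 with DESeq2, against -0.02. The causes were not tested.

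Without each library in turn, genes higher ran from 1998 to 2557 in liver, 2952 to 4216 in lung and 1062 to 1623 for the difference. Genes lower ran from 1894 to 2499, 2668 to 3795 and 951 to 1424. For the difference, transporters higher stayed at 1, and those lower ran from 0 to 1, the 1 being Slco1a4 without liver CLP replicate 1 (-1.65, edgeR with Benjamini-Hochberg adjusted p = 0.0181, with -1.29 and 0.435 over all libraries). Transporters lower in lung stayed at 1. Log2 fold changes in liver ran from -1.23 to -0.78 for Slc10a1, -0.32 to 0.0305 for Slco1a1, -0.999 to -0.23 for Slco1a4, -1.003 to -0.66 for Slco1b2, -0.28 to -0.08 for Abcb11, -0.87 to -0.46 for Abcb4, -1.68 to -1.24 for Abcc2, -0.39 to 0.11 for Abcg5, -1.12 to -0.40 for Abcg8 and -0.16 to 0.18 for Abcc3. In lung they ran from -2.47 to -1.62 for Slco1a4 and -0.0540 to 0.0309 for Abcc3. The difference for Slco1a4 ran from -1.84 to -0.89, and uptake minus export from 0.19 to 0.32.

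With the replicate number as a block, 2649 genes were higher and 2596 lower in liver, 3344 and 3526 in lung, and 1267 and 1284 for the difference. The labels do not pair the numbers. Deviations of libraries with the same number correlated at 0.0513 to 0.173 in liver and 0.0225 to 0.0924 in lung, and 6 of 6 liver and 4 of 6 lung libraries correlated best with their own number, so the block was kept as an alternative.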
